A study of Danio rerio with 8 samples.

Results

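Wnt and FGF (fibroblast growth factor) signalling genes were followed in RNA sequencing libraries from adult zebrafish, 3 to 9 months old and untreated. Their ventricular cells were sorted by fluorescence, and the fish carry the reporter transgene Tg(-6.8wt1a:EGFP). In this line a fragment upstream of wt1a, a transcription factor gene of the epicardium, the heart's surface layer, drives green fluorescent protein (GFP). The 2 groups carry the labels GFP-positive and GFP-negative, with 4 libraries each. Each of 4 pools of 3 to 5 hearts gave a library of both kinds, so a library stands for pooled fish, and every group carries the transgene. The genes were chosen from a list of 49 symbols, matched to the table by symbol, by synonym or by the symbol cut before its paralog letter. The list covers Wnt ligands, receptors, R-spondins, inhibitors, beta-catenin and its feedback gene, FGF ligands, FGF receptors and feedback inhibitors. It matched 50 of 31388 identifiers, and 37 of them were kept because they had at least 1 TPM (a relative transcript abundance corrected for transcript length, with the same total in every library) in at least 2 of the 8 libraries.

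Wnt proteins are secreted ligands that bind Frizzled receptors together with the co-receptors LRP5 and LRP6. In the canonical branch this keeps beta-catenin from being degraded, so that it reaches the nucleus and switches on target genes such as axin2. R-spondins strengthen the response, and secreted inhibitors of the DKK, SFRP and WIF families weaken or redirect it. FGFs bind receptor tyrosine kinases at the cell surface and signal mainly through the MAP kinase cascade, which induces its own inhibitors, the Sprouty proteins and the phosphatase DUSP6. In the heart both pathways are known for roles in the epicardium, in the formation of epicardium-derived cells and in the growth of the muscle.

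The reporter's own gene did not follow the labels. Its row, named WT1 (ENSDARG00000031420), lay between 1.74 and 3.76 scaled TPM in the 4 libraries of pools 1 and 2 (below, the first pair) and between 32.7 and 56.6 in the 4 of pools 3 and 4 (the second pair), with a log2 difference of -0.10 between the labelled sorts, so each direction below is that of the libraries as labelled. Scaled TPM is the deposited TPM divided by a factor per library, which ran from 0.603 to 0.818 in the first pair and from 1.21 to 1.89 in the second pair. Genes with at least 1 TPM numbered 12332 to 13432 per library in the first pair and 13737 to 14783 in the second. The 50 most abundant genes held 74.45 to 80.51% of the TPM in the first pair and 45.2 to 66.31% in the second. The part of this difference in the low values below was not tested. Marker genes of several cell types also differed between the pairs of pools. Summed over each list in scaled TPM, 17 cardiomyocyte markers had 38163 to 49484 in the first pair and 1182 to 3176 in the second, and 15 fibroblast and matrix markers had 494 to 1041 and 5731 to 7277. The sums were 422 to 583.5 and 53.6 to 85.97 for 12 endothelial markers, 1079.7 to 2957 and 9.37 to 20.8 for 8 erythrocyte markers, and 103 to 139 and 374 to 459 for 10 smooth muscle and pericyte markers. They were 1364 to 1809 and 1014 to 1363 for 10 epicardium markers, 221 to 313 and 147 to 182 for 13 macrophage and myeloid markers, and 1.96 to 6.66 and 7.24 to 11.7 for 6 neural markers. In TPM as deposited the epicardium sums (885 to 1479 and 1226 to 2573) and the macrophage and myeloid sums (152 to 255 and 177 to 344) lay the other way, with overlap. Every library of the second pair was above every library of the first in scaled TPM for 14 fibroblast, 4 epicardium, 3 smooth muscle and 1 macrophage marker, and below for 14 cardiomyocyte, 10 endothelial, 5 erythrocyte, 4 epicardium, 4 macrophage and 2 smooth muscle markers. Of all 17531 genes with at least 1 TPM in 2 libraries, 9.93% lay above and 12.6% below by the same rule. Counts of 1 or 2 markers in a list are close to these shares. No marker was at 0 in all 8 libraries. The part of these cell types in the values below was not tested, and in bulk libraries fewer cells of a type and less RNA per cell cannot be told apart.

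Of the 50 matched identifiers 13 were not kept. The ligand wnt2, the inhibitor SFRP2 and the FGF ligand FGF10 (ENSDARG00000030932) were listed at 0 in all libraries. WNT2B, WNT9A, WNT9B, fgf24 and the feedback inhibitor SPRY1 stayed under 1 TPM everywhere, with highest values of 0.90, 0.46, 0.22, 0.08 and 0.90. Just outside the limit, with 1 library at 1 TPM or more, were WNT5A (1.38 in the library labelled GFP-negative of pool 3), wnt11f2 (2.03 in that of pool 1), dkk1b (1.08 in that of pool 4), RSPO2 (3.37 in the library labelled GFP-positive of pool 4) and the other FGF10 (ENSDARG00000100475, 3.87 in that of pool 3). Just inside it were WIF1, with 3.50 and 1.69 TPM in the libraries of pool 3, and a FZD8 identifier (ENSDARG00000038569), with 5.73 TPM in the library labelled GFP-negative of pool 3 and 2.13 in that of pool 4. For fzd1, fzd4 and fzd6 no row was matched, and they were not analysed here. Several symbols stand without a paralog letter, so the identifiers named FZD7, FZD8, DKK3, SFRP1, FGF18 and FGFR1, a pair of each, cannot be told apart as the a and b copies and are given with their identifier.

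**Figure D1:**
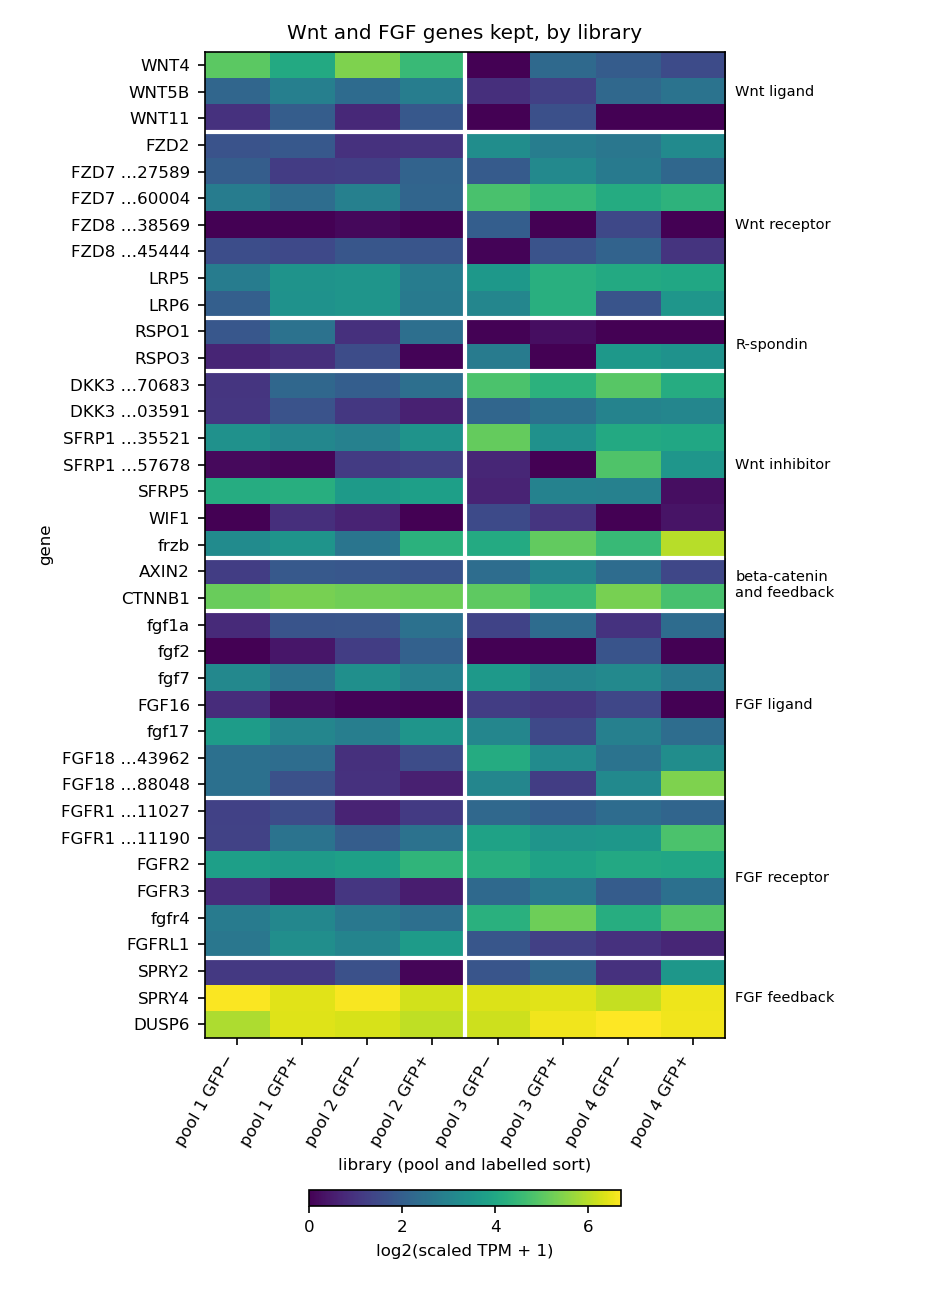
Level of the 37 Wnt and FGF genes kept (rows, grouped by role) in the 8 libraries (columns), as colour on the scale log2(scaled TPM + 1). SPRY4 and DUSP6 are bright in all libraries, with 58.1 to 103 scaled TPM, and the columns of pools 3 and 4 are brighter than those of pools 1 and 2 for genes such as fgfr4 (17.2 to 36.2 against 4.42 to 7.63).

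The most abundant members were the FGF feedback inhibitors. SPRY4 (ENSDARG00000068732), a Sprouty inhibitor of receptor tyrosine kinase signalling, had 68.7 to 99.98 scaled TPM over the 8 libraries, and DUSP6 (ENSDARG00000070914), a phosphatase that inactivates the MAP kinase ERK, had 58.1 to 103. Beta-catenin (CTNNB1, ENSDARG00000014571) followed with 21.9 to 39.3, and the secreted Wnt antagonist frzb (ENSDARG00000018383) with 5.05 to 62.8. At least 1 TPM as deposited in all 8 libraries was reached by 13 of the 37 members. Most ligands were low. Of the Wnt ligands only WNT4, WNT5B and WNT11 were kept, and WNT11 never exceeded 2.92 scaled TPM.

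The study set sorted reporter cells against the other cells of the ventricle. None of the 37 members was called between the labelled sorts. With limma, 0 of 17531 genes (0%) had a higher and 0 (0%) a lower level under the label GFP-positive at an adjusted p under 0.05, with 941 genes (5.37%) and 2 members at an unadjusted p under 0.05. The smallest adjusted p among the members was 0.854. The log2 differences of the members ran from -1.06 for RSPO3 to 1.103 for frzb, with a median of 0.06 beside 0.02 for all genes tested. For 5 of 37 members (13.5%) the sign was shared by all 4 pools, as it was for 12% of all genes tested.

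Those 5 members are the ones named for the labelled sorts. frzb, which binds and sequesters Wnt ligands, had 10.1, 18.3, 33.4 and 62.8 scaled TPM in the libraries with the label GFP-positive, from pool 1 to pool 4, and 8.49, 5.05, 16.0 and 21.8 in those with the label GFP-negative. The groups overlapped, but in each pool the library labelled GFP-positive was the higher one; the log2 difference was 1.103, with an SE of 0.30, an interval at 95% of 0.42 to 1.79 and a limma adjusted p of 0.854. The means were 31.2 ± 23.2 and 12.8 ± 7.51 (SD, n = 4). For fgf1a (ENSDARG00000017542), an FGF ligand that can bind all FGF receptors, the values were 2.34, 4.63, 4.13 and 4.21 in the libraries labelled GFP-positive and 0.74, 2.41, 1.55 and 0.98 in those labelled GFP-negative. Only the library labelled GFP-positive of pool 1 overlapped with the other sort, and the log2 difference was 1.01 (SE 0.37; limma adjusted p = 0.854). These were also the 2 members with an unadjusted p under 0.05, at 0.00616 for frzb and 0.0274 for fgf1a, and neither passed the adjustment.

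The other 3 had smaller differences. fgf7 (ENSDARG00000059387), a ligand that in mammals acts from mesenchyme on epithelium, had 5.02, 6.55, 7.10 and 5.62 scaled TPM in the libraries with the label GFP-positive, from pool 1 to pool 4, and 7.73, 9.06, 11.03 and 7.87 in those with the label GFP-negative. All 4 values of the first sort lay below all 4 of the second, with a log2 difference of -0.49 (SE 0.27; limma adjusted p = 0.854). In the deposited TPM the sorts overlapped, because the library of pool 3 labelled GFP-positive stood at 11.52 and that of pool 1 labelled GFP-negative at 5.09. WNT5B (ENSDARG00000102464), a ligand of the branch that does not use beta-catenin, had 4.69 ± 2.29 in the libraries labelled GFP-positive and 3.09 ± 1.48 in those labelled GFP-negative (SD, n = 4), a log2 difference of 0.45 (SE 0.34; limma adjusted p = 0.875). FGF16 (ENSDARG00000042233) was near the floor of the data, with at most 1.68 scaled TPM, and had a log2 difference of -0.56 (SE 0.40, limma adjusted p = 0.873). When each pool or library was left out in turn, these 5 members stayed uncalled. FGF16 was not tested without pool 3, where it missed the filter on low values. The log2 differences kept their sign, but this follows from naming members with the same sign in all 4 pools. A fit without 1 library also takes the other library of its pool out of this difference. The differences ran, for example, from 0.91 to 1.40 for frzb and from 0.86 to 1.14 for fgf1a.

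**Figure D2:**
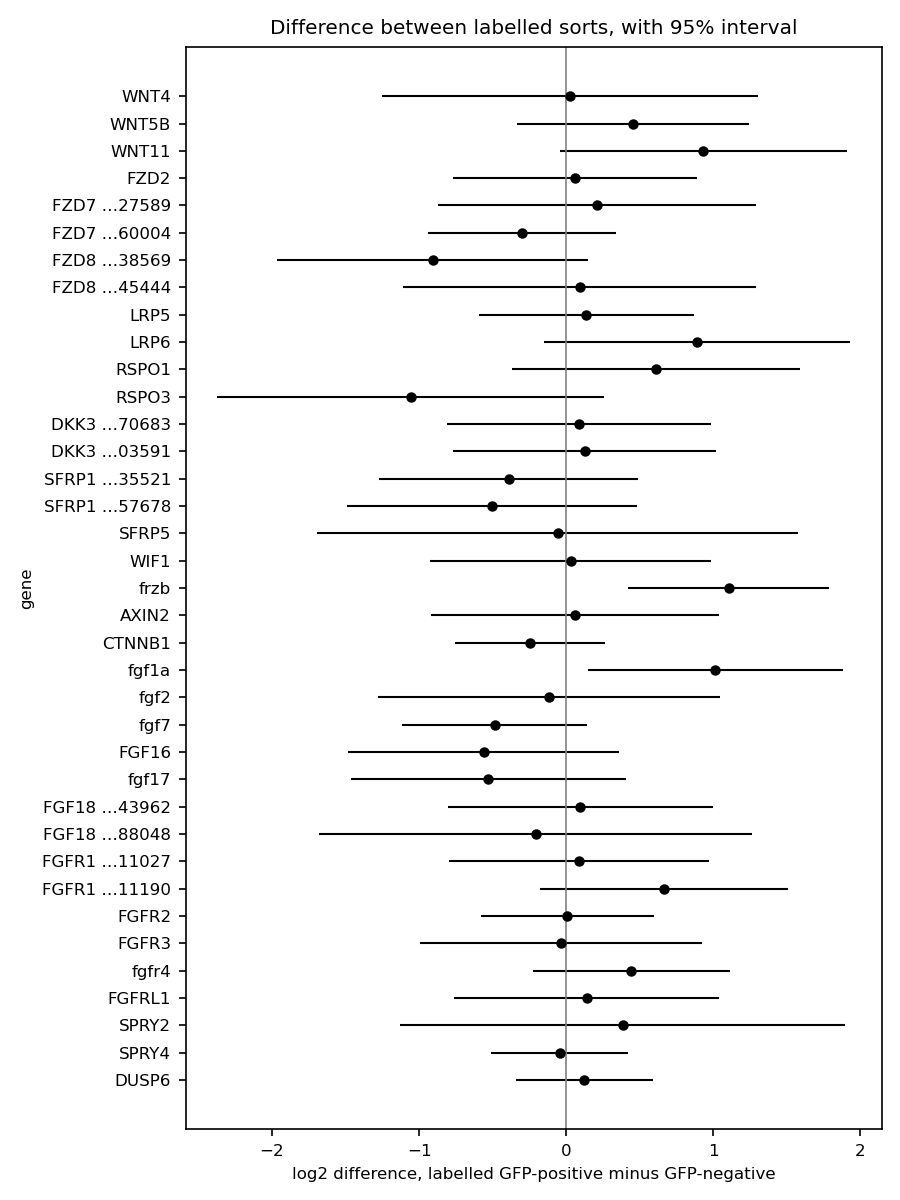
Log2 difference between the libraries labelled GFP-positive and GFP-negative (x axis, on log2(scaled TPM + 1), pool as a block) for the 37 members (y axis); points are limma estimates and bars 95% confidence intervals, not adjusted for the number of genes. The intervals of frzb (0.42 to 1.79) and fgf1a (0.15 to 1.88) lie above 0, and neither gene was called after adjustment.

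The second comparison is among the 4 pools. That the second pair of pools stands apart from the first was known from earlier results of these data, so that arrangement is described with values and without a test, and the test is the limma F test among the 4 pools as labelled. Its spread comes from the 2 libraries of each pool, which share their hearts, so that its p-values leave out the variation from one set of hearts to another. Of 37 members 5 were called (13.5%), against 9.29% of all 17531 genes tested: SFRP1 (ENSDARG00000057678), DKK3 (ENSDARG00000070683), FZD7 (ENSDARG00000060004), fgfr4 and WNT4. Called with the highest means in the second pair were 3 members and 564 of all 17531 genes tested (3.22%). Called with the highest means in the first pair were 1 member and 997 genes (5.69%), and with another order 1 member and 68 genes (0.388%). These percentages are shares of all genes tested, not of the 1629 genes called. In 10 members (27%) every library of the second pair lay above every library of the first pair in scaled TPM, against 9.93% of all genes, and in 4 members (10.8%) below, against 12.6%. The median log2 difference, the second pair minus the first pair, was 0.65 over the members and 0.01 over all genes tested. Without the filter on low values no member was called by limma, while with it 16 of 37 (43.2%) had an unadjusted F test p under 0.05, as had 23.2% of all genes. Because a kept gene needs only 2 libraries at 1 TPM, a member low in one pair of pools could be kept through the other pair, and these counts are a description of the genes kept. With the TPM as deposited the median of all genes moved to 0.73, 14 members were called against 20.5% of all genes, and 17 members had the second pair above, against 27.4%, and 2 below, against 5.84%. Leaving out pool 3 gave 17 in place of 10 for the first count, and the share of all genes was not computed for that fit. Ranges of fewer libraries overlap less easily, so such a count can hardly fall. Leaving out each pool or library in turn gave between 0 and 4 called members.

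**Figure D3:**
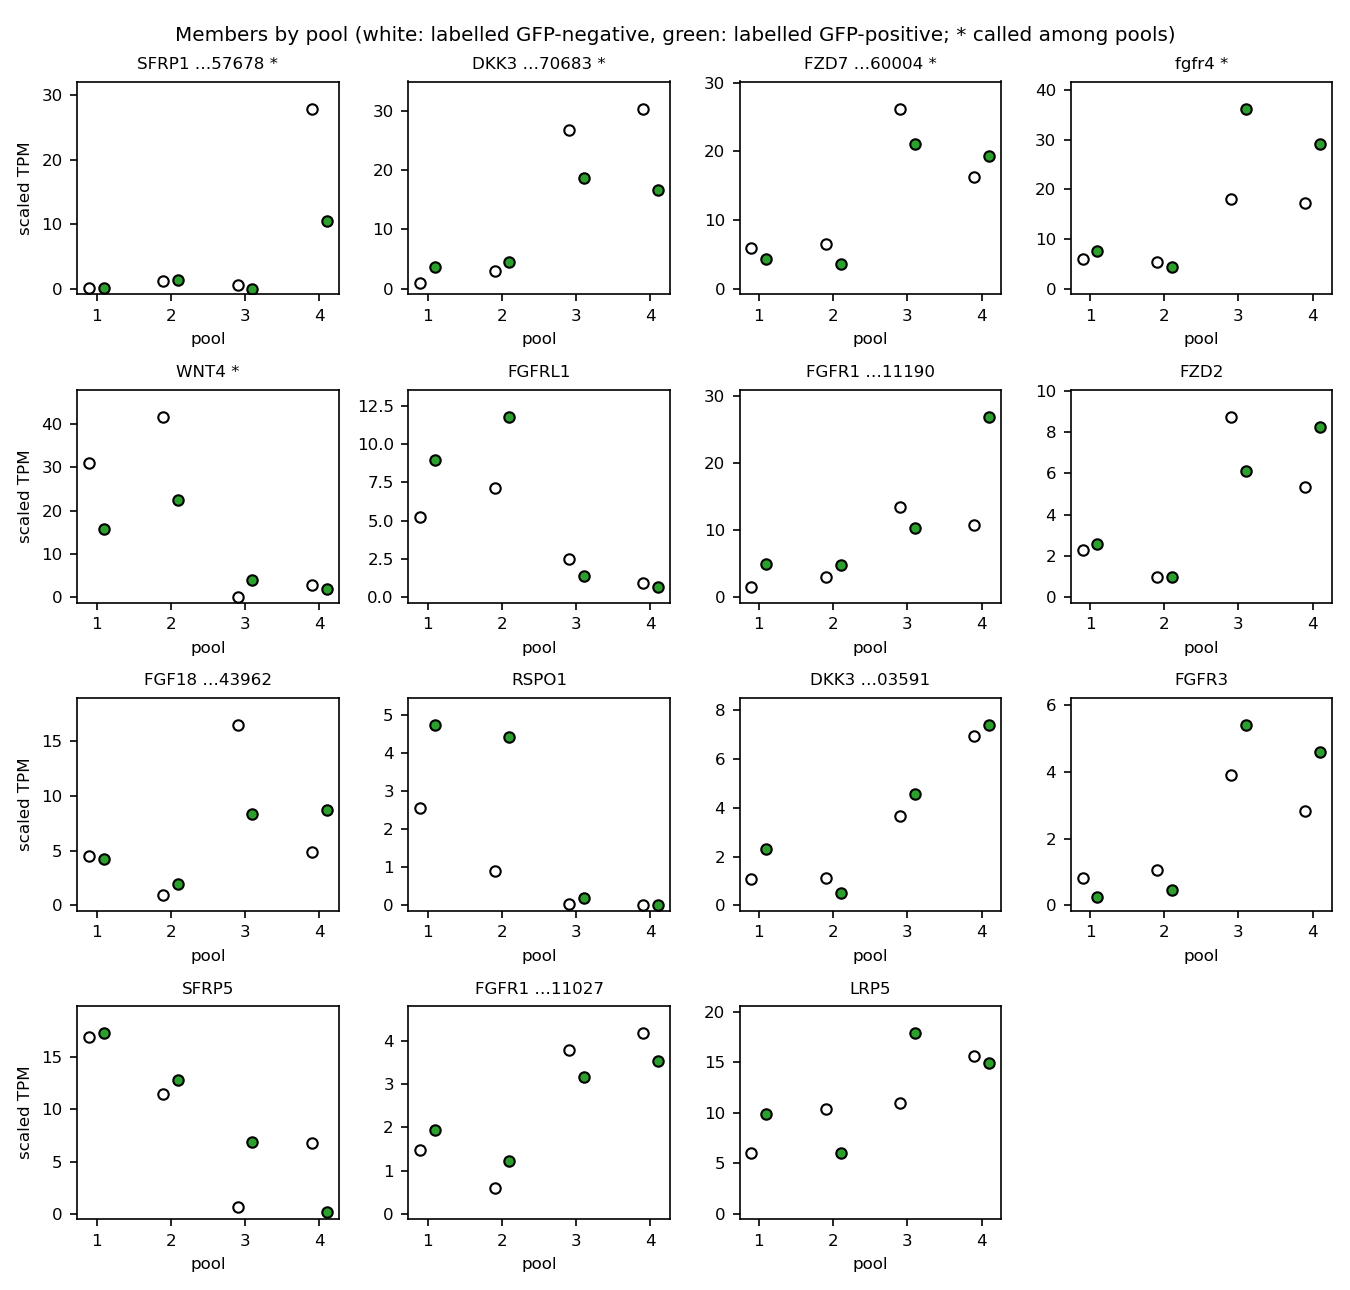
Scaled TPM (y axis, from 0) of the 5 members called by the F test among pools (starred) and of the other 10 whose libraries of pools 3 and 4 all lay above or all below those of pools 1 and 2, by pool (x axis); each point is a library, white for the label GFP-negative and green for GFP-positive. The starred SFRP1 is high in pool 4 alone, with 10.5 and 27.9, and WNT4 is at most 3.94 in pools 3 and 4.

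Among the Wnt ligands, WNT4 (ENSDARG00000071208) was lower in the second pair. WNT4 acts in mammals in kidney and reproductive organ development, and here it had 31.1, 15.8, 41.6 and 22.4 scaled TPM in the 4 libraries of the first pair (GFP-negative then GFP-positive for each pool) and 0, 3.94, 2.84 and 1.91 in those of the second pair. The ranges did not overlap, in the deposited TPM either (9.51 to 34.1 and 0 to 6.39), and the log2 difference was -3.31 (limma F test, adjusted p = 0.0342). The library labelled GFP-negative was the higher one in pools 1, 2 and 4, and in pool 3 the lower one, where it is listed at 0. The call was lost in the TPM as deposited (adjusted p = 0.0952), and also without pools 1, 2 or 4 or any of their 6 libraries (0.0688 to 0.126), and held without pool 3 and without each of its libraries. WNT5B had 3.66 to 6.37 scaled TPM in the first pair and 0.88 to 4.86 in the second pair (adjusted p = 0.199). WNT11 (ENSDARG00000014796) had 0.71 to 2.92 and 0 to 2.10 (limma F test, adjusted p = 0.376). Summed over the 9 ligand identifiers, Wnt ligands had 26.9 to 47.7 scaled TPM in the libraries of the first pair and 1.62 to 7.57 in those of the second pair, and WNT4 made up most of the first sums.

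Some Wnt receptors, and the sum over all of them, lay the other way. The Frizzled receptor FZD7 (ENSDARG00000060004) had 5.98, 4.29, 6.54 and 3.55 scaled TPM in the libraries of the first pair, in the same order, and 26.2, 21.1, 16.3 and 19.3 in those of the second pair. No value of the first set reached the second, and the log2 difference was 1.85 (limma F test, adjusted p = 0.0217). This call held without pool 4 and without each of its libraries, but was lost without pools 1, 2 or 3 or any of their 6 libraries (0.0554 to 0.0879). The related FZD2 (ENSDARG00000054438) had 0.95 to 2.59 in the first pair and 5.34 to 8.73 in the second pair, without overlap, and was not called (adjusted p = 0.0863). The co-receptor LRP5 (ENSDARG00000006921) had 6.01 to 10.4 and 10.95 to 17.9, again without overlap and not called (0.400), whereas LRP6 (ENSDARG00000100143) overlapped widely at 3.08 to 10.3 and 2.33 to 17.7 (0.644). The other FZD7 (ENSDARG00000027589) had 1.28 to 3.38 and 2.79 to 7.90, overlapping, and the FZD8 identifiers stayed at or under 3.40 scaled TPM. One of these, ENSDARG00000045444, differed by -0.43 after scaling but by 0.15 in the TPM as deposited. Summed over the 7 receptor identifiers the level was 22.04 to 32.2 in the first pair and 50.5 to 73.0 in the second pair.

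The R-spondins, which keep Frizzled receptors at the cell surface, were low and did not share an arrangement. RSPO1 (ENSDARG00000104340) had 2.55, 4.74, 0.89 and 4.44 scaled TPM in the first pair and 0.03, 0.20, 0 and 0 in the second pair, without overlap and not called (limma F test, adjusted p = 0.109). With at most 0.32 TPM as deposited in the second pair, RSPO1 was kept only through the first pair, where it is higher. RSPO3 (ENSDARG00000070081) had 0.61, 0.88, 1.96 and 0.04 in the first pair and 5.93, 0, 11.02 and 9.77 in the second pair (0.162). The 0 in the library labelled GFP-positive of pool 3 made the ranges of RSPO3 overlap. In the first pair RSPO3 reached 1 TPM as deposited only in the library labelled GFP-negative of pool 2 (1.6). It was thus kept only through the second pair.

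Secreted Wnt inhibitors differed among themselves, with some high in the second pair, SFRP5 high in the first and a copy of SFRP1 high in pool 4 alone. DKK3 (ENSDARG00000070683), a secreted glycoprotein of the Dickkopf family whose effect on Wnt signalling differs between contexts, had 1.06, 3.75, 2.98 and 4.50 scaled TPM in the libraries of the first pair and 26.7, 18.7, 30.3 and 16.7 in those of the second pair. The ranges were far apart, with a log2 difference of 2.62 (limma F test, adjusted p = 0.0213). The second DKK3 (ENSDARG00000103591) was lower in the second pair than the first DKK3. It had 0.52 to 2.30 in the first pair and 3.66 to 7.37 in the second, without overlap, and was not called (0.118). In the first pair it reached 1 TPM only in the library labelled GFP-positive of pool 1 (1.39 TPM). It was thus kept only through the second pair, where it is high, and its arrangement is no support for that of the first DKK3. The call of the first was lost without pool 3 (0.0508), with the GFP-negative-labelled library of pool 1, 2 or 3 left out (0.0649, 0.0653 and 0.0542) and without the library labelled GFP-positive of pool 2 (0.0620).

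The SFRP proteins bind Wnt ligands through a domain like that of Frizzled. SFRP1 (ENSDARG00000057678) was high in pool 4 alone: it had 0.12, 0.07, 1.26 and 1.41 scaled TPM in the first pair, 0.65 and 0 in pool 3, and 27.9 and 10.5 in pool 4. It was the member with the smallest p in the F test (limma adjusted p = 0.0131), and its arrangement was not that of the first pair against the second. Without pool 4 the difference between the pool means turned from 1.60 to -0.29 (0.425), without pool 3 it was 3.40 and without pool 1 it was 1.03, both still called, and the call was also lost without the libraries labelled GFP-negative of pool 4 (0.0977) and pool 1 (0.0575). The other SFRP1 (ENSDARG00000035521) had 6.64 to 9.88 in the first pair and 9.50 to 33.6 in the second pair (adjusted p = 0.445). SFRP5 (ENSDARG00000039041) lay the opposite way, with 16.9, 17.3, 11.5 and 12.8 in the first pair and 0.60, 6.87, 6.78 and 0.19 in the second pair, without overlap but with a wide spread within the second pair (0.268). In the TPM as deposited SFRP5 reached 11.14 in both sets and they overlapped. frzb had 5.05 to 18.3 and 16.0 to 62.8 (0.0553), overlapping through the library labelled GFP-positive of pool 2. As deposited, frzb (4.13 to 12.65 and 26.3 to 75.83) and SFRP1 ENSDARG00000035521 (4.61 to 6.81 and 15.42 to 63.33) did not overlap. Both were called there (limma F test, adjusted p = 0.00743 and 0.0455), where the median log2 difference of all genes was 0.73. WIF1 (ENSDARG00000005541), which binds Wnt ligands directly, stayed at or under 1.85 scaled TPM. As a sum, the 9 inhibitor identifiers had 29.2 to 47.5 in the first pair and 74.1 to 113 in the second pair.

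**Figure D4:**
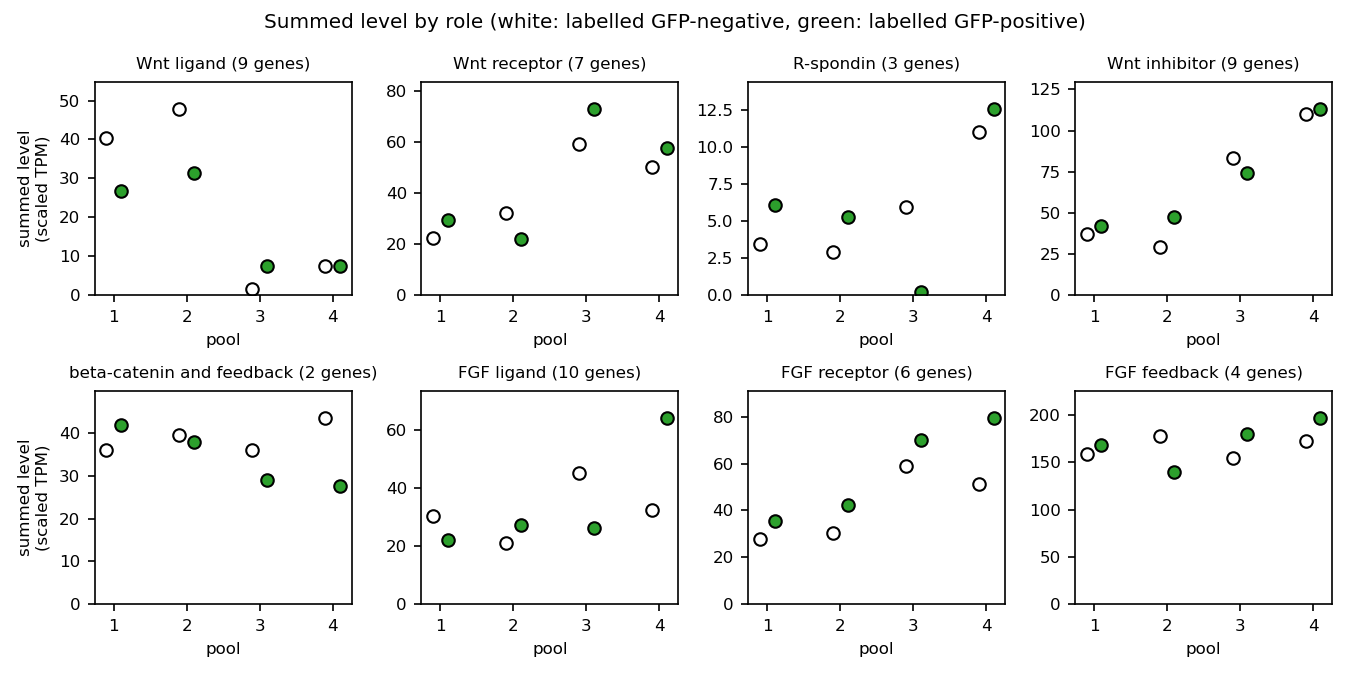
Summed level of all matched identifiers of each role (y axis, scaled TPM, from 0) by pool (x axis); each point is a library, white for the label GFP-negative and green for GFP-positive. The Wnt ligand sum is 26.9 to 47.7 in pools 1 and 2 but never above 7.57 in pools 3 and 4, and the sums of Wnt receptors, Wnt inhibitors and FGF receptors are higher in every library of pools 3 and 4 than in any of pools 1 and 2.

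Neither AXIN2 nor beta-catenin was called among the pools. AXIN2 (ENSDARG00000100149), a feedback inhibitor and common target gene of the pathway, had 1.32, 2.64, 2.53 and 2.32 scaled TPM in the first pair and 4.31, 7.15, 4.16 and 1.68 in the second pair. Only the library labelled GFP-positive of pool 4 overlapped with the first set, and the gene was not called (limma F test, adjusted p = 0.553). CTNNB1 had 34.8 to 39.3 and 21.9 to 39.3 (0.671), with a log2 difference of -0.32 that turned to 0.72 in the TPM as deposited.

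Most FGF ligands overlapped between the pairs of pools. fgf7 had 5.02 to 9.06 scaled TPM in the first pair and 5.62 to 11.03 in the second pair, and fgf1a had 0.74 to 4.63 and 0.98 to 4.21. The exception was FGF18 (ENSDARG00000043962), a ligand known for roles in skeletal and lung development in mammals, with 4.53, 4.23, 0.91 and 1.96 in the first pair and 16.4, 8.33, 4.83 and 8.70 in the second pair. These ranges did not overlap, by a narrow margin, and the gene was not called (limma F test, adjusted p = 0.103). The other FGF18 (ENSDARG00000088048) had 0.51 to 4.59 in the first pair and 7.47, 1.31, 8.07 and 41.1 in the second pair, so that 1 library stood far above the rest. fgf17 (ENSDARG00000102778) had 6.24 to 12.0 and 1.77 to 7.41, a log2 difference of -0.82 after scaling but 0.10 in the TPM as deposited. FGF16, a ligand known in mice for heart growth, and fgf2 (ENSDARG00000104348) stayed at or under 3.23 scaled TPM and were at 0 in several libraries.

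Of 6 FGF receptor members, 4 lay above in the second pair without overlap and 1 below, beside 9.93% and 12.6% of all genes. FGFR3 and the lower FGFR1 had fewer than 2 libraries at 1 TPM in the first pair. They were thus kept only through the second pair, where they are high, and their arrangement is no support for that of the other receptors. fgfr4 (ENSDARG00000069105) had 5.94, 7.63, 5.39 and 4.42 scaled TPM in the libraries of the first pair and 18.03, 36.2, 17.2 and 29.1 in those of the second pair. Every library of the second pair was above any of the first, with a log2 difference of 1.89 (limma F test, adjusted p = 0.0237). The library labelled GFP-positive was the higher one in pools 1, 3 and 4 and the lower one in pool 2. The call held without pool 4 and with the GFP-negative-labelled library of pool 2 or of pool 3 left out, and was lost in the other 9 fits with a pool or library left out (0.0507 to 0.0869): those without pools 1, 2 or 3, without any of the 4 libraries labelled GFP-positive, and without the GFP-negative-labelled library of pool 1 or 4. FGFR1 (ENSDARG00000011190) had 1.49, 4.89, 2.97 and 4.74 in the first pair and 13.5, 10.2, 10.7 and 26.9 in the second pair, and was not called (0.0650). The lower FGFR1 (ENSDARG00000011027) had 0.59 to 1.94 and 3.16 to 4.18 (0.328), and FGFR3 (ENSDARG00000004782) had 0.25 to 1.08 and 2.84 to 5.41 (0.149), each without overlap.

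The remaining 2 receptor genes differed from these. FGFR2 (ENSDARG00000058115) kept to a narrow range, with 11.8 to 19.8 scaled TPM in the first pair and 13.6 to 17.4 in the second pair (limma F test, adjusted p = 0.857). In the TPM as deposited it had 7.14 to 13.6 and 17.6 to 32.8 and was called (0.0480), with a log2 difference of 1.11 beside the median of 0.73 over all genes. FGFRL1 (ENSDARG00000032617), a receptor-like protein that lacks the kinase domain, had 5.27, 8.99, 7.11 and 11.8 in the first pair and 2.49, 1.40, 0.94 and 0.65 in the second pair. Its ranges did not overlap, with a log2 difference of -1.98, short of the threshold (0.0589). In the TPM as deposited FGFRL1 had 3.47 to 8.13 and 0.79 to 4.70, which overlap (0.121). The summed FGF receptor level was 27.7 to 42.4 in the first pair and 51.5 to 79.3 in the second pair.

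The abundant FGF feedback genes overlapped between the pools after scaling. SPRY4 had 99.98, 83.1, 98.1 and 74.5 scaled TPM in the first pair and 80.1, 83.4, 68.7 and 91.8 in the second pair (limma F test, adjusted p = 0.944). DUSP6 had 58.1, 82.7, 77.2 and 65.3 and then 72.5, 93.0, 103 and 94.1 (0.586). Both overlapped, but in the TPM as deposited neither did: SPRY4 had 50.1 to 80.2 and 83.0 to 151, and DUSP6 38.3 to 63.1 and 114 to 151. The log2 difference of SPRY4 thereby went from -0.13 to 0.94 (adjusted p = 0.0562 as deposited), and that of DUSP6 from 0.35 to 1.42 (0.0141). SPRY2 (ENSDARG00000078308) was low, at 0.07 to 2.15 and 0.95 to 10.7 scaled TPM (0.643).

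Beyond the members, 13 lists of other Wnt and FGF pathway genes held 119 identifiers that were tested, of which 11 were called among the pools (9.24%), close to the 9.29% of all genes. In 16 of them (13.4%) all libraries of the second pair lay above and in 9 (7.56%) below, beside 9.93% and 12.6% of all genes. With limma none was called between the labelled sorts, with 6 at an unadjusted p under 0.05. The called genes were 4 of 7 FGF target transcription factors, 3 of 10 FGF feedback inhibitors, 2 of 14 FGF co-receptors and surface modulators, 1 of 11 other Wnt receptors, 1 of 15 genes of the destruction complex and relay, and 1 of 7 Wnt target genes, MYC, which is also among the FGF targets. No gene was called among 5 other Wnt ligands, 3 genes of Wnt secretion, 5 other Wnt inhibitors, 11 nuclear partners of beta-catenin, 9 planar cell polarity genes, 5 other FGF ligands or 22 genes of the FGF receptor relay.

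Of the 4 genes called in the list of FGF targets, ETV4 (ENSDARG00000018303), etv5a (ENSDARG00000069763) and egr1 (ENSDARG00000037421) were highest in the second pair. The remaining one, MYC, was lower there and is given below. ETV4, an ETS transcription factor induced by FGF signalling, had 3.69, 6.17, 5.91 and 5.73 scaled TPM in the first pair and 25.8, 21.7, 37.2 and 33.4 in the second pair, a log2 difference of 2.25 (limma F test, adjusted p = 0.00690). For etv5a the ranges were 5.59 to 16.6 and 17.4 to 30.9 (0.0380), and for egr1 77.5 to 145 and 414 to 511 (0.00252). Of the inhibitors, IL17RD (ENSDARG00000098359), which blocks FGF signalling at the membrane and is also called Sef, had 0, 0.51, 0.59 and 0.51 in the first pair and 7.81, 8.46, 7.18 and 11.1 in the second pair (0.0139). In the first pair IL17RD stayed under 1 TPM, so it was kept only through the second pair, where it is high. SPRED2 (ENSDARG00000008372), an inhibitor of the Ras and MAP kinase cascade, had 10.5 to 15.8 and 27.7 to 37.9 (0.0335), and the phosphatase DUSP2 (ENSDARG00000098108) 12.05 to 19.2 and 31.0 to 60.9 (0.0140).

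SULF1 (ENSDARG00000038428), an enzyme that removes sulfate groups from the heparan sulfate on which FGF and Wnt ligands depend, had the largest difference of these 11 genes, with 1.63, 5.70, 4.79 and 8.38 scaled TPM in the first pair and 64.3, 74.6, 35.8 and 47.7 in the second pair (log2 difference 3.29; limma F test, adjusted p = 0.00193). Its relative sulf2a (ENSDARG00000018423) overlapped, with 0.48 to 4.60 and 4.10 to 22.1 (0.0332). The Frizzled receptor FZD3 (ENSDARG00000058692) had 0 to 1.72 and 6.11 to 14.5 (0.0315), and DVL3 (ENSDARG00000103462), a Dishevelled protein that relays the signal from Frizzled, 2.19 to 3.43 and 11.3 to 19.2 (0.0335). FZD3 was at 0 in the first pair except for 1.04 TPM in the library labelled GFP-positive of pool 1. It was thus kept only through the second pair, where it is high. MYC (ENSDARG00000007241), a growth-promoting transcription factor, was lower, with 460 to 666 and 199 to 329 (log2 difference -1.097, adjusted p = 0.0446), but in the TPM as deposited the difference was -0.02 (0.912). Each pool or library was left out in turn in 12 fits, and the calls of SULF1, ETV4 and egr1 held in each. IL17RD lost its call in 4 fits (without pool 1, without either of its libraries and without the library labelled GFP-positive of pool 2), with adjusted p up to 0.0702. The calls of DUSP2, FZD3, sulf2a, etv5a and MYC were lost in 6, 8, 9, 10 and 11 fits, and those of DVL3 and SPRED2 in all 12, with adjusted p of at most 0.247 for etv5a and 0.201 or less for the others.

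**Figure D5:**
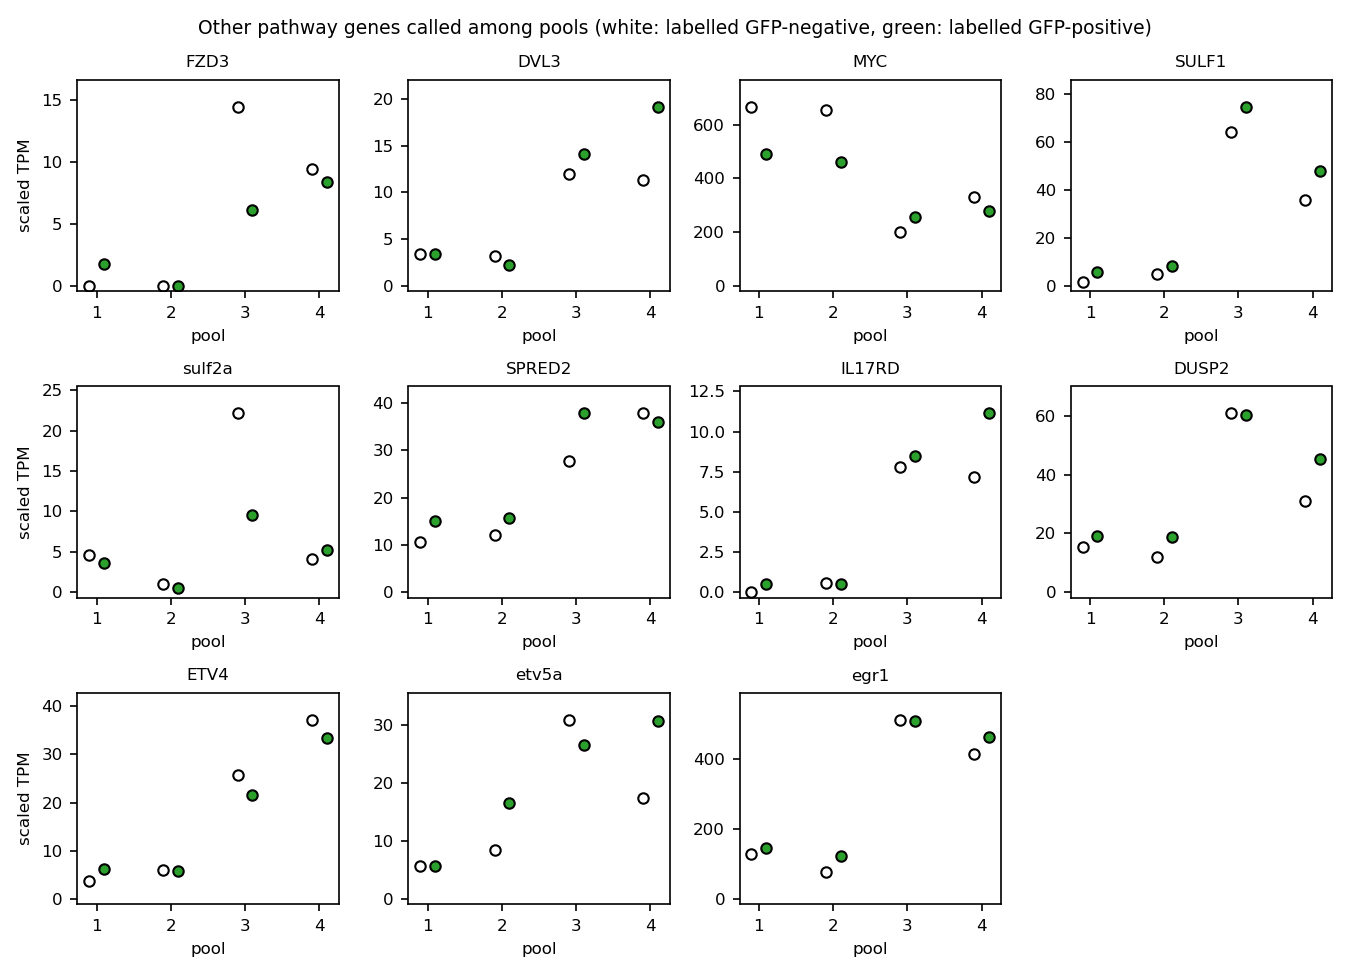
Scaled TPM (y axis, from 0) of the 11 other Wnt and FGF pathway genes called by the F test among pools, by pool (x axis); each point is a library, white for the label GFP-negative and green for GFP-positive. MYC is lower in pools 3 and 4 (199 to 329 against 460 to 666) and the other 10 have their highest pool means there.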

How the data were processed

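The deposited values are TPM in 1 table of 31388 gene identifiers for 8 libraries; the submitters' processing notes name CASAVA 1.8.2, cutadapt, RSEM 1.2.25 and the build Zv9. Aligner and annotation are not given in the sources used here. Per the labels' protocols, each library started from 0.2 to 0.6 ng of RNA and was amplified in 2 rounds. The same protocol text also names mCherry-positive cells and another library kit, which the sample labels do not mention. TPM has a fixed total per library, so the sequencing depth is unknown and no interval that needs counts was computed.

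The scaling factors are trimmed means of log ratios, unweighted (30% of ratios and 5% of abundances trimmed at each end) over 13877 genes with at least 1 TPM in 4 libraries. Limma 3.58.1 in R 4.3.3 was fitted to log2(scaled TPM + 1) of the 17531 genes with at least 1 TPM in 2 libraries, with a mean-dependent prior variance, pool as a block and labelled sort as terms, and Benjamini-Hochberg adjusted p under 0.05. With this pseudocount a log2 difference is too small for genes of low level. The scripts were run on simulated data with known changes placed only in genes of higher level. Those data lacked the wide differences between pools seen here, and the outcome is not reported here. The replicates are paired, per the series design text and the pool label. Deviations of same-pool libraries correlated at 0.411, 0.462, 0.390 and 0.344. These were not set beside libraries of different pools, so they do not by themselves show the pairing. No gene was called between the labelled sorts with or without the block. Symbols for 25925 identifiers came from a gene name table, and synonyms from RefSeq (GRCz12tu, names alone).

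The members, gene lists and marker lists were chosen with earlier results of these data known. Members were named for labelled sorts where all 4 pools had the same sign, up to 6 by size, and among pools where the F test called them. Of the other lists, up to 4 called genes per list were named. Alternatives were other scalings, filters, pseudocounts of 0.1 and 5, other priors, no block, no sort term, and leaving out each pool or library. Figures were drawn with matplotlib 3.10.9 in Python 3.11.15.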

Additional observations from a re-analysis of the deposited data

Results flagged for a closer look

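In 7 of 74 groups of 4 libraries (37 members, each labelled sort) 1 library stood apart from the other 3 by Dixon's criterion at the 95% level. That level assumes independent, normally distributed values. For FZD8 (ENSDARG00000038569) the 4 libraries labelled GFP-positive were all at 0, so the criterion could not be applied to that group. Here the groups span both pairs of pools and hold low values and zeros, so the count cannot be set against a chance rate. These libraries fall on pool 4 in 4 groups, on pool 3 in 2 and on pool 2 in 1. In pool 4, SFRP1 (ENSDARG00000057678) had 27.9 scaled TPM in the library labelled GFP-negative, where the others had 0.121 to 1.26, and 10.5 in the library labelled GFP-positive, where the others had 0 to 1.41. In that last library RSPO3 had 9.77, where the others had 0 to 0.879, and FGF18 (ENSDARG00000088048) had 41.1, where the others had 0.508 to 2.19. In pool 3, WNT5B had 0.885 in the library labelled GFP-negative, below the 3.66 to 4.05 of the others, and FGF16 had 1.13 in the library labelled GFP-positive, above 0 to 0.166. In pool 2, fgf2 had 3.23 in the library labelled GFP-positive, above 0 to 0.332.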

How the results depend on the processing

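Between the labelled sorts limma called 0 genes and 0 members under each other scaling, filter, pseudocount and prior and without the replicate block; leaving out each pool or library in turn gave 0 to 3 genes and 0 members. Among the pools, 1629 genes were called, 3597 with the TPM as deposited, 884 without a filter and 807 to 1300 with a pool or library left out. The 5 called members became 14 with the TPM as deposited, 0 without a filter, 3 with a pseudocount of 0.1, 1 with a prior variance without a trend and 0 to 4 with a pool or library left out. The 10 members above in pools 3 and 4 became 17 with the TPM as deposited, where 27.4% of all genes lay above. They became 10 to 17 with a pool or library left out. The 4 below became 2 as deposited, where 5.84% of all genes lay below, and 4 to 6. With a pool or library left out, no share of all genes was computed. These alternatives were chosen after seeing the data. With fewer libraries, ranges that do not overlap stay so, apart from changes in scaling, so leaving libraries out could hardly lower these counts. The log2 difference of SFRP1 (ENSDARG00000057678) ran from -0.287 without pool 4, which holds its high values, to 3.396 without pool 3. The cause of the other shifts was not tested. The differences of low members depend on the pseudocount: that of WNT4 was -4.39 with 0.1 and -2.16 with 5.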
